A study of Mus musculus with 34 samples.

Results

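The genes described here are 9 scaffold genes of the postsynaptic density: Dlg4 and Dlg2 of the PSD-95 family, Dlgap1 of the SAPAP family, Shank1, Shank2 and Shank3, and Homer1, Homer2 and Homer3. They were chosen by name, as the rows of the deposited table that carry these symbols, and all 9 were found among the 18548 genes of the table. All 9 had a mean above the minimum of 10 normalized counts in every comparison.

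The postsynaptic density is the protein-dense layer beneath the membrane of an excitatory synapse, in which stacked scaffold proteins hold glutamate receptors near signalling enzymes and the actin skeleton. In the textbook arrangement, the PSD-95 family proteins sit next to the membrane and bind receptors and adhesion molecules, and the SAPAP proteins link them to the Shank proteins below. Shank proteins in turn bind Homer proteins, which tether group I metabotropic glutamate receptors and intracellular calcium channels. Myt1l, the mutated gene of the study, codes for a neuronal DNA-binding protein with zinc fingers.

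Total RNA was sequenced in 34 libraries, all from untreated male mice of the C57BL/6J strain aged 56 days. Prefrontal cortex (PFC) gave 5 libraries labelled Myt1l heterozygote and 6 labelled wild type, hippocampus 5 and 6, and striatum 6 and 6. The labels do not describe the Myt1l allele (elsewhere they speak of knock-out pups), and they do not say that the libraries came from separate animals, so p-values measure only the spread between these libraries. The column names hold 12 codes: 10 were found in all 3 regions, and the other 2 codes were found in 2. The labels were followed for code 31-67M, which is given to PFC wild-type replicate 6 but also to replicate 1 of the heterozygotes in hippocampus and in striatum.

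Library totals of normalized counts lay between 25786041 and 29798959, and no 2 libraries held identical values. Myt1l itself was not lower in the libraries labelled heterozygote: the Myt1l log2 difference from wild type was 0.04 (SE 0.08) in PFC, 0.15 (SE 0.06) in hippocampus and 0.08 (SE 0.07) in striatum, with adjusted p-values of 0.988, 0.719 and 0.915 (limma). In an undescribed allele this level does not check the labels, and each direction given below by genotype rests on them. Marker levels followed the tissue labels: the summed level of 9 medium spiny neuron genes was 64415 to 97084 in striatum and 4735 to 12286 elsewhere. The summed level of 7 cortical and hippocampal excitatory neuron genes was 45598 to 58190 in PFC and hippocampus. In striatum it ran from 1496 to 12813, and Slc17a7, the vesicular glutamate transporter of those neurons, was 5294 to 8530 in 5 libraries (heterozygote replicates 1 and 2, wild-type replicates 1, 4 and 5) and 337 to 1187 in the other 7. The choroid plexus gene Ttr was 1591 in hippocampus heterozygote replicate 1 and 1298 in hippocampus wild-type replicate 6, against 20035 to 78192 in the other hippocampus libraries. In striatum Ttr was 539 in heterozygote replicate 1, against 20131 to 81544 in the other striatum libraries.

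Homer1 was highest in PFC and Homer3 in hippocampus (given further on), so a stretch of the coding sequences of the Homer genes is shown for how far reads can tell the copies apart. These 90 bases lie near the start of the coding sequence in 1 GENCODE transcript of each gene (coding bases 58 to 147 in Homer1, 10 to 99 in Homer2 and 19 to 108 in Homer3). Capitals mark the 26 positions that are not the same in all 3 genes, and the other 64 positions are shared.
Homer1: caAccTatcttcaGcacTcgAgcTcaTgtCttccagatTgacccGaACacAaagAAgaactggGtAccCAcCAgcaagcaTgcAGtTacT
Homer2: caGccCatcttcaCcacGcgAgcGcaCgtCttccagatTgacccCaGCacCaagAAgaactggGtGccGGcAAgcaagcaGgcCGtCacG
Homer3: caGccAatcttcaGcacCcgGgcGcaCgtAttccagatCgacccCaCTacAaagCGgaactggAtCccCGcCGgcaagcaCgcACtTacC
Homer2 matched Homer1 at 73 of these 90 positions and Homer3 matched Homer1 at 70. The whole coding sequences of 1 transcript per gene were also aligned, and identity was counted over the aligned bases, without positions facing a gap. It was 64.5% between Homer1 and Homer2, 63.9% between Homer1 and Homer3, and 65.8% between Homer2 and Homer3. Counted the same way, identity was 66.1% to 67.4% among the Shank genes and 69.5% between Dlg2 and Dlg4 (2285 aligned bases, coding lengths 2874 and 2304).

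No 31-base word was shared between the transcripts of the 3 Homer genes, between those of the 3 Shank genes, or between Dlg2 and Dlg4. The share of a gene's 31-base words found in transcripts of any other gene was 23.15% for Homer3 and at most 4.12% for the other 8 members. Ddx49, on the opposite strand, overlaps 874 bases, or 25.41%, of the Homer3 exons. The library kit named in the labels does not mark strand, so reads from that stretch cannot be told apart and the level of Homer3 is uncertain to that extent.

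Dlg4 encodes PSD-95, the abundant scaffold that anchors NMDA receptors and the AMPA receptor auxiliary proteins. It lies on chromosome 11 (GRCm38, 70016942 to 70047522, plus strand), with 27 merged exons. In wild type, Dlg4 ran from 22235 to 23674 normalized counts in PFC (median 22823), from 17548 to 19327 in hippocampus (median 18250) and from 13936 to 17168 in striatum (median 15808). The 3 ranges did not overlap. Dlg4 was higher in PFC than in hippocampus by 0.32 on the log2 scale (SE 0.04, adjusted p = 5.26e-07, limma) and higher in hippocampus than in striatum by 0.21 (SE 0.04, adjusted p = 0.000133, limma). Values in this and the following comparisons are differences of log2(normalized count + 1), and the adjusted p-values cover all 17017 genes tested.

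Dlg2 encodes PSD-93, a relative of PSD-95 that also binds potassium channels and NMDA receptors. It spans chromosome 7 from 90476672 to 92449247 on the plus strand, with 37 merged exons. Its wild-type level was 13240 to 15227 in PFC (median 14011), 10504 to 12865 in hippocampus (median 11565) and 11875 to 14342 in striatum (median 12675). The PFC libraries all lay above the hippocampus libraries, and the striatum libraries overlapped both. Unlike Dlg4, Dlg2 was higher in striatum than in hippocampus, with a hippocampus minus striatum difference of -0.16 (SE 0.05, adjusted p = 0.0115, limma). That call was lost without the 5 striatum libraries high in Slc17a7, which left -0.08 in wild type (adjusted p = 0.233, limma) and -0.14 in the heterozygotes (adjusted p = 0.0767, limma, against -0.19 with them). Those fits kept only striatum replicates 2, 3 and 6 of wild type and 3 to 6 of the heterozygotes.

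Dlgap1 encodes SAPAP1, also called GKAP, the link between PSD-95 and Shank. It lies on chromosome 17 (69969073 to 70821413, plus strand), with 19 merged exons. Dlgap1 was at 16405 to 17937 in wild-type PFC (median 17200), 17332 to 18739 in hippocampus (median 17878) and 4554 to 7353 in striatum (median 5562). Every striatum library was below every library of the other regions, while PFC and hippocampus overlapped. The difference was 1.62 (SE 0.08) for PFC minus striatum, a 3.08-fold difference with adjusted p = 1.86e-12 (limma), and -0.06 (SE 0.08, adjusted p = 0.571, limma) for PFC minus hippocampus, with a 95% interval of -0.24 to 0.11.

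Among the striatum libraries, Dlgap1 was 6076 to 7353 in the 5 libraries high in Slc17a7 (median 6282) and 4037 to 5047 in the other 7 (median 4645), without overlap. The other 8 members overlapped between these libraries, but all of them except Homer3 also had the higher median in the 5. How many of all genes do the same was not counted, so these counts do not set the members apart. Homer1 had medians of 6431 and 4687 (5187 to 7606 against 4054 to 6618), and Shank1 of 7709 and 6273. The coefficient of variation in striatum was 19.3% in wild type and 20.6% in heterozygotes for Dlgap1, and 19.6% and 24.3% for Homer1. Without the 5 libraries the PFC minus striatum difference of Dlgap1 was 1.86 in wild type, with only striatum replicates 2, 3 and 6 left. The part of cortical or other excitatory tissue in these values was not tested, and in bulk tissue fewer cells of a type and less RNA per cell cannot be told apart.

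**Figure D1:**
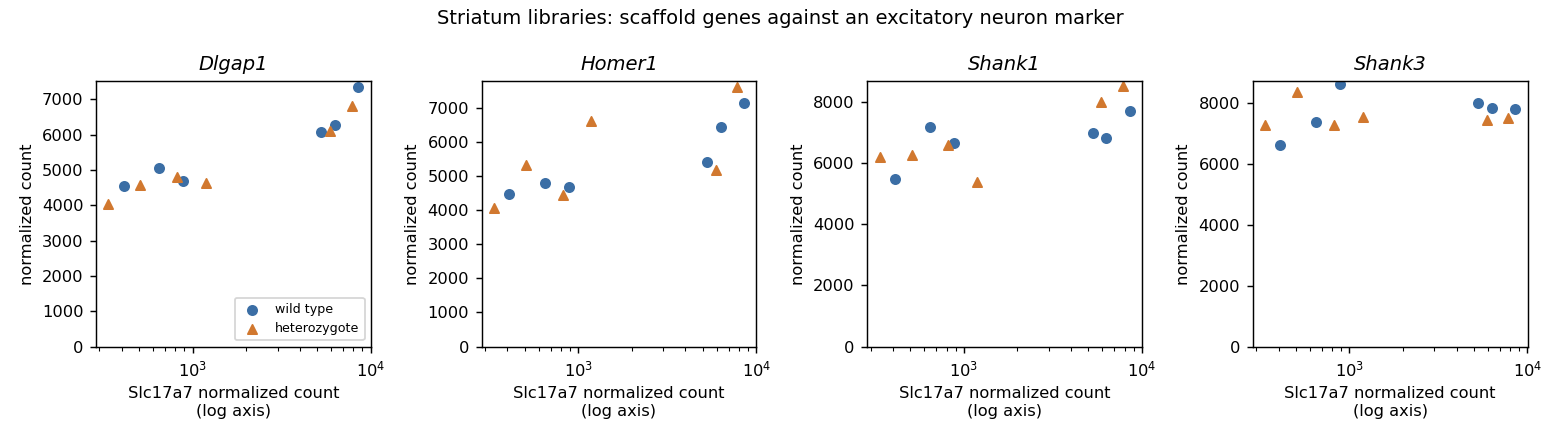
Normalized counts of Dlgap1, Homer1, Shank1 and Shank3 in the 12 striatum libraries (vertical axes, from 0) against the normalized count of Slc17a7 (log axis), 1 point per library, circles for wild type and triangles for heterozygote. Dlgap1 is at 6076 or more in the 5 libraries on the right and at 5047 or less in the 7 on the left, whereas the Shank3 values of the 2 sets overlap.

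Shank1, Shank2 and Shank3 encode the large scaffolds of the deeper layer, which bind SAPAP proteins above and Homer and actin-linked proteins beside them. Shank1 and Shank2 lie on chromosome 7 (44310253 to 44360572 and 144001928 to 144424494) and Shank3 on chromosome 15 (89499623 to 89560261), each on the plus strand. Shank1 had the steepest regional differences of the family: its wild-type level was 20127 to 24216 in PFC (median 22741), 15235 to 16692 in hippocampus (median 15990) and 5488 to 7709 in striatum (median 6912). The ranges of the 3 regions did not overlap. Shank1 was higher in PFC than in striatum by 1.73 (SE 0.06, 3.32-fold, adjusted p = 1e-15, limma) and higher in hippocampus than in striatum by 1.24 (SE 0.06, 2.35-fold).

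Shank2 kept the same order of regions with smaller differences. Its wild-type level was 8394 to 9331 in PFC (median 8603), 6228 to 6593 in hippocampus (median 6365) and 3172 to 4454 in striatum (median 3682), again without overlap. Shank2 was higher in PFC by 0.44 (SE 0.05, adjusted p = 4.11e-07, limma) over hippocampus and by 1.22 (SE 0.05, adjusted p = 1.74e-14, limma) over striatum.

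Shank3, whose loss is known to cause repetitive grooming in mice, was nearly level over the 3 regions. Its wild-type range was 8021 to 9006 in PFC (median 8283), 7182 to 8173 in hippocampus (median 7958) and 6607 to 8620 in striatum (median 7810), and every pair of ranges overlapped. The PFC minus striatum difference was 0.13 (SE 0.05, adjusted p = 0.0305, limma) in wild type and 0.09 (SE 0.04, adjusted p = 0.0488, limma) in heterozygotes. Neither of the other pairs of regions passed the threshold for Shank3, and the 95% interval of the hippocampus minus striatum difference in wild type was -0.07 to 0.14.

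The small PFC minus striatum calls of Shank3, and of Dlg2 in wild type (0.12, SE 0.05, adjusted p = 0.0426, limma), sat near the threshold. They were lost when any of several single libraries was left out. In wild type the Shank3 call was lost without PFC replicate 1 or 5 or striatum replicate 2 or 3, with differences of 0.09 to 0.12 and adjusted p-values of 0.0636 to 0.0961 (limma). The Dlg2 call was lost without PFC replicate 2, 3, 4 or 6 or striatum replicate 1, 2, 3 or 6, with differences of 0.10 to 0.13 and adjusted p-values of 0.0505 to 0.114 (limma). In heterozygotes the Shank3 call was lost in 13 of the 16 fits that left out 1 library, with differences of 0.07 to 0.10 and adjusted p-values of 0.0509 to 0.141 (limma); it stayed only without PFC replicate 2, hippocampus replicate 3 or striatum replicate 3. With every library rescaled to the same total, both differences in wild type turned slightly negative, -0.01 for Shank3 and -0.02 for Dlg2.

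Homer1, Homer2 and Homer3 encode adaptors that share a domain binding Shank and metabotropic glutamate receptors. Homer1 is also known for a short isoform induced by activity, which a value for the whole gene does not separate. Homer1 lies on chromosome 13 (93299635 to 93405129, plus strand), Homer2 on chromosome 7 (81600481 to 81707527, minus strand) and Homer3 on chromosome 8 (70282827 to 70294361, plus strand). Homer1 was highest in PFC: its wild-type level was 8141 to 12009 there (median 9689), 4582 to 5373 in hippocampus (median 4834) and 4483 to 7148 in striatum (median 5108). PFC did not overlap the other regions, while hippocampus and striatum overlapped. Homer1 was higher in PFC than in hippocampus by 1.00 (SE 0.11, 2.00-fold, adjusted p = 1.91e-07, limma) and than in striatum by 0.85 (SE 0.11, adjusted p = 1.05e-06, limma).

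Homer2 was high in both PFC and hippocampus and low in striatum. Its wild-type level was 3026 to 3727 in PFC (median 3416), 2967 to 3522 in hippocampus (median 3367) and 1229 to 1601 in striatum (median 1438). PFC and hippocampus overlapped, with a difference of 0.04 (SE 0.06, adjusted p = 0.638, limma; 95% interval -0.09 to 0.17). Homer2 was higher in PFC than in striatum by 1.24 (SE 0.06, 2.36-fold) and in hippocampus than in striatum by 1.20 (SE 0.06, 2.30-fold), with no overlap in either case.

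Homer3 was high in hippocampus and low in both other regions. In wild type it was 137 to 172 in PFC (median 153), 1052 to 1387 in hippocampus (median 1197) and 129 to 208 in striatum (median 173). Over both genotypes the hippocampus libraries lay between 1052 and 1437 and all other libraries between 107 and 279. Homer3 was higher in hippocampus by 7.75-fold over PFC (PFC minus hippocampus -2.95, SE 0.10, adjusted p = 4.02e-16, limma) and by 6.87-fold over striatum (2.78, SE 0.10, adjusted p = 4.83e-16, limma). Ddx49 itself had wild-type means of 545 in PFC, 544 in hippocampus and 508 in striatum. Leaving out the Ddx49 stretch was not possible from gene values, so its part in the level of Homer3 was not tested.

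PFC minus striatum was -0.17 for Homer3 in wild type (SE 0.10, adjusted p = 0.148, limma) and -0.44 in heterozygotes (SE 0.13, adjusted p = 0.00665, limma). The difference between these 2 values was not past the threshold (-0.28, SE 0.17, adjusted p = 0.999, limma interaction). In wild type the call depended on the libraries used and on their scaling. The difference was -0.32 with equal library totals (adjusted p = 0.0115, limma). Without wild-type striatum replicate 5 it was -0.26 (adjusted p = 0.0163, limma), and without the 5 libraries high in Slc17a7 it was -0.33 (adjusted p = 0.00844, limma).

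**Figure D2:**
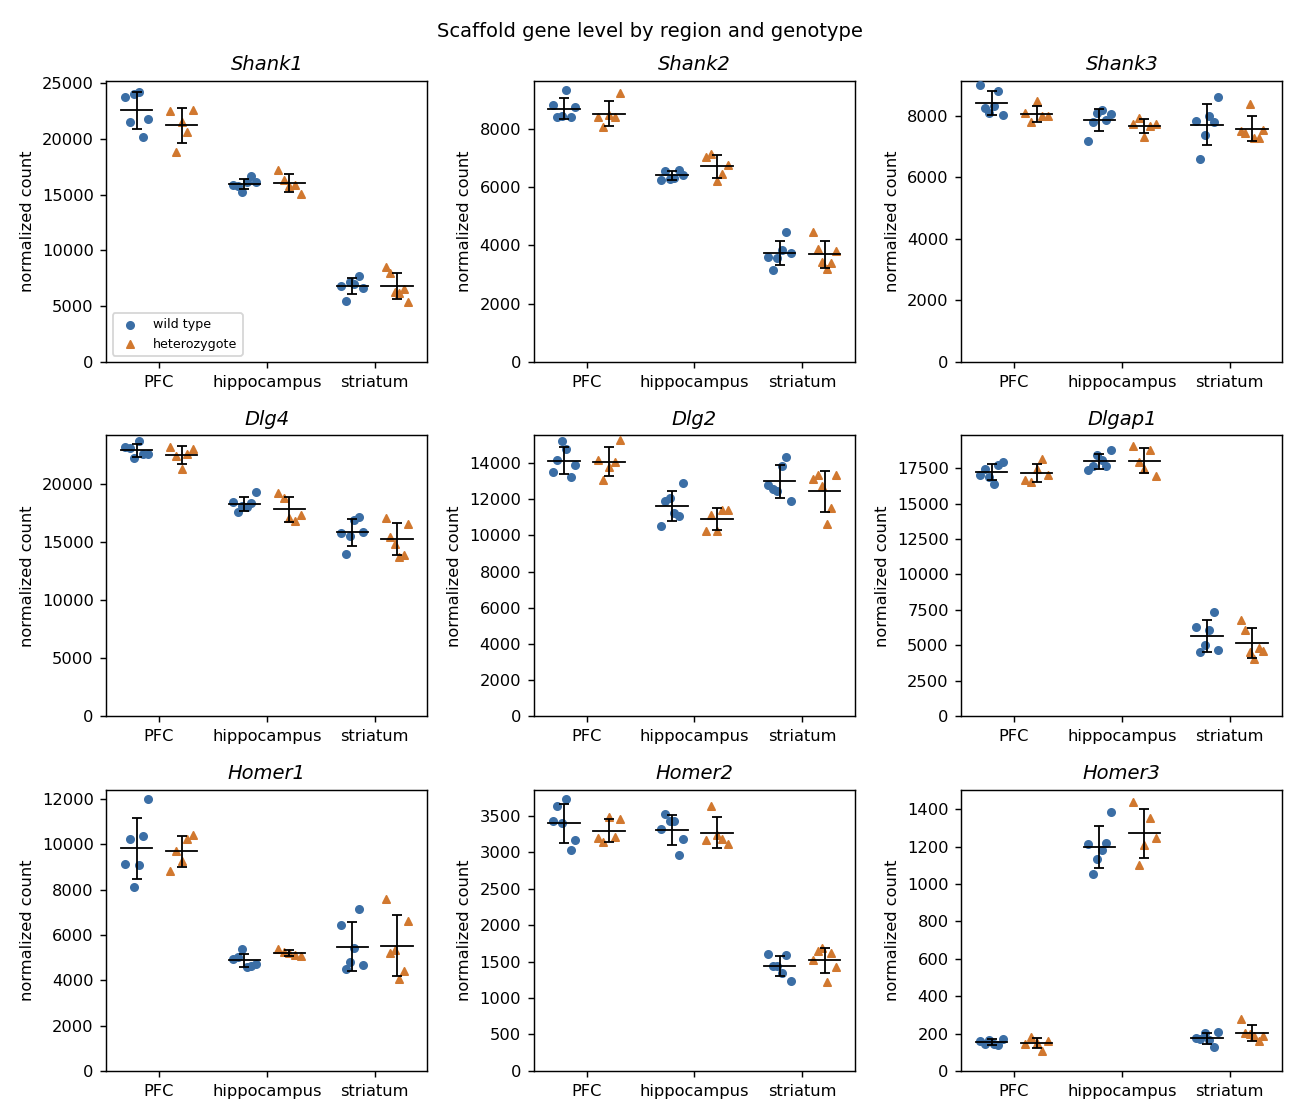
Normalized counts of the 9 scaffold genes (vertical axes, each from 0) in PFC, hippocampus and striatum, 1 point per library, blue circles for wild type and orange triangles for heterozygote, with the mean as a line and the SD as a bar. Homer3 stands at 1052 to 1437 in hippocampus and at 107 to 279 elsewhere, Dlgap1 stands at 7353 or less in striatum, and the 2 genotypes overlap in every panel and region.

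Counted over the members, 6 of 9 differed between PFC and hippocampus in wild type (5 higher in PFC, 1 lower), where 46.8% of all genes tested passed the same threshold (22.9% higher and 23.9% lower). Between PFC and striatum 8 of 9 passed, all higher in PFC, against 57% of all genes (27.8% higher and 29.2% lower). Between hippocampus and striatum 7 passed, 6 of them higher in hippocampus, and 1 (Dlg2) lower, against 48% (23.9% higher and 24.1% lower). The median member difference was 0.28, 0.85 and 0.78 in these 3 comparisons, against -0.01 over all genes in each. The 3 comparisons share libraries, so their counts are not separate evidence.

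With a difference of at least 1 on the log2 scale added to the rule, the counts were 2 members (Homer1 higher, Homer3 lower in PFC) between PFC and hippocampus, against 9.14% of all genes (4.2% higher and 4.95% lower). Homer1 sat on that edge, and the count was 1 without any of 9 single libraries (PFC wild-type replicates 2, 5 and 6, hippocampus 4, 5 and 6, striatum 1, 2 and 6). The same rule gave 4 members between PFC and striatum (Shank1, Shank2, Dlgap1 and Homer2; all higher in PFC; background 13.4%, or 5.41% higher) and 4 between hippocampus and striatum (Shank1, Dlgap1, Homer2 and Homer3; all higher in hippocampus; background 10.8%, or 4.71% higher). The ranges of the wild-type libraries did not overlap for 6 members in each pair of regions, against 29%, 35.8% and 29.8% of all genes.

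In the heterozygotes 6 members passed between PFC and hippocampus (5 higher in PFC, 1 lower), against 43.6% of all genes (21.1% higher and 22.5% lower). Between PFC and striatum 9 passed (8 higher, 1 lower), against 56% (27.3% and 28.8%), and between hippocampus and striatum 7 (6 higher, 1 lower), against 46.3% (23.2% in each direction). The Dlg2 calls among them were lost in some settings: PFC minus striatum went from 0.18 to 0.03 with equal library totals (adjusted p = 0.617, limma), and hippocampus minus striatum from -0.19 to -0.14 with only codes beginning with 35 (adjusted p = 0.142, limma). The differences themselves stood close to those of wild type: Shank1 was 1.66 (SE 0.09) higher in PFC than in striatum, Dlgap1 1.76 (SE 0.10), and Homer3 was -3.10 (SE 0.14) for PFC minus hippocampus. Homer1 was 0.90 (SE 0.12) higher in PFC than in hippocampus. The ranges did not overlap for 6, 6 and 5 members, against 31.4%, 38.2% and 29.5%.

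Directions between regions depended on how libraries were scaled for the smallest differences. With every library rescaled to the same total, the median over all genes moved to -0.10 for PFC minus hippocampus, -0.15 for PFC minus striatum and -0.06 for hippocampus minus striatum in wild type. The split of all genes called then became 3184 higher and 7330 lower in PFC against striatum, from 4739 and 4962 with the deposited scaling; 2914 and 5846 in PFC against hippocampus, from 3890 and 4069; and 3370 and 5007 in hippocampus against striatum, from 4071 and 4099. In heterozygotes the splits became 3130 and 7267 from 4659 and 4912, 2680 and 5600 from 3610 and 3836, and 3257 and 4762 from 3956 and 3959. The larger differences of Shank1, Shank2, Dlg4, Dlgap1, Homer1 and Homer3 described above kept their direction and call, as did the differences of Homer2 from striatum.

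**Figure D3:**
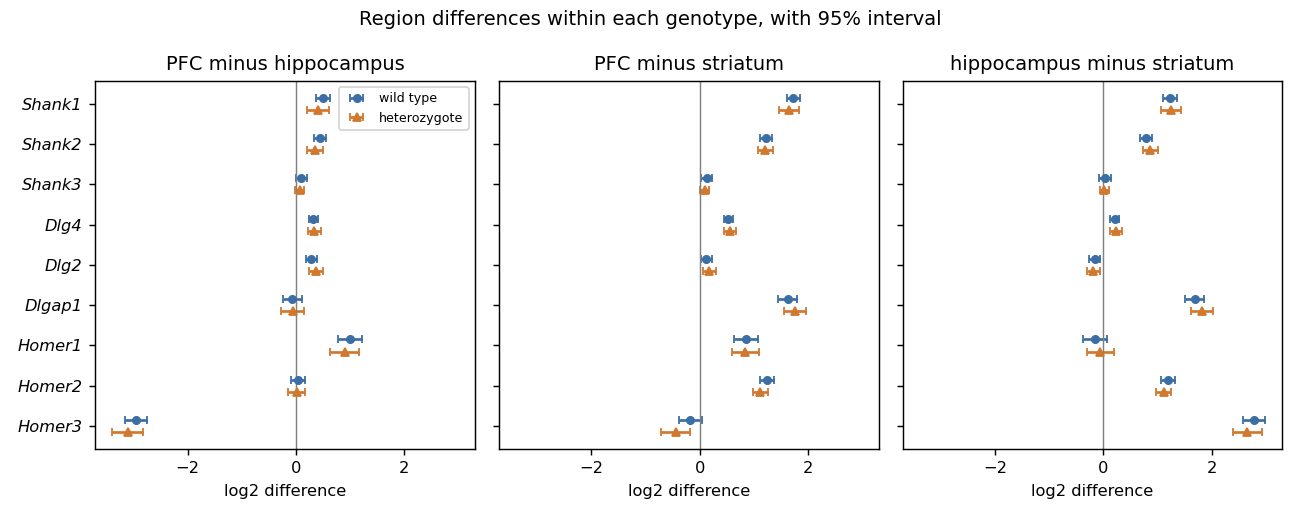
Log2 difference between regions (horizontal axes) for the 9 scaffold genes, within wild type (blue circles) and within heterozygotes (orange triangles), with 95% intervals from limma. Shank1, Shank2, Dlgap1 and Homer2 lie to the right of 0 in both comparisons with striatum, Homer3 lies near -3 for PFC minus hippocampus, and the 2 genotypes lie next to each other for each gene.

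Levels of different genes can be set side by side only per length, here as normalized counts per kilobase of the merged exons. In wild-type PFC Shank1 (2147 ± 159 SD, n = 6) and Dlg4 (1727 ± 39.6) led, without overlap between them or with the rest. Dlgap1 (963), Shank3 (916), Dlg2 (868), Homer1 (821) and Shank2 (807) followed, and each overlapped its neighbour in this order. Homer2 (269 ± 21.2) and Homer3 (44.7 ± 4.23) stood below, each apart from its neighbour.

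In wild-type hippocampus the order per kilobase was Shank1 (1519), Dlg4 (1381), Dlgap1 (1006), Shank3 (855), Dlg2 (713), Shank2 (595), Homer1 (408), Homer3 (348) and Homer2 (262). Shank1 and Dlg4, Shank3 and Dlg2, and Homer1 and Homer3 overlapped. In striatum Dlg4 led (1197), without overlap with the next, followed by Shank3 (838), Dlg2 (797), Shank1 (648), Homer1 (459), Shank2 (347) and Dlgap1 (317), each overlapping its neighbour, and then Homer2 (114) and Homer3 (50.9), which stood apart. The place of Shank1 thus went from the first in PFC to the fourth in striatum, and that of Homer3 was the last in PFC and striatum but not in hippocampus.

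Among all genes of the table, Shank1 stood at percentile 97.7 of level per kilobase in wild-type PFC and 90.7 in striatum, and Homer3 at 38.4 in PFC and 80.4 in hippocampus. The order changed with the length used. By the longest annotated transcript, Dlg4 (3618), Dlgap1 (2401) and Shank1 (2297) led in wild-type PFC, since the merged exons of Dlgap1 (17890 bases) are much longer than its longest transcript (7173 bases).

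Within the Shank family the make-up shifted between regions. Of the summed level per kilobase, Shank1 held 55.4% ± 1.84 (SD, n = 6) in wild-type PFC, 51.2% ± 1.00 in hippocampus and 35.3% ± 1.69 in striatum. Shank3 held 23.7% ± 1.51, 28.8% ± 1.08 and 45.8% ± 2.20. The wild-type libraries of striatum, at 42.5% to 48.9% for Shank3, lay above those of the other regions, at 22.2% to 30.2%. Shank2 stayed between 18.1% and 21.7% in all wild-type libraries. Shank3 was thus the leading Shank in striatum while its own level differed little, and Shank1 was the leading Shank elsewhere.

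Within the Homer family Homer1 held 72.1% ± 3.53 in wild-type PFC, 40.1% ± 1.99 in hippocampus and 73.2% ± 3.51 in striatum. Homer3 held 3.97% ± 0.531, 34.2% ± 2.99 and 8.40% ± 2.23 in the same order. Homer2 held 23.9% ± 3.21, 25.7% ± 1.55 and 18.4% ± 1.74. With the longest transcript as length, the Homer shares changed to 82.2%, 52.9% and 82.6% for Homer1 and 2.85%, 28.5% and 5.99% for Homer3 in the same order, and to 18.6% in hippocampus and 11.4% in striatum for Homer2. Dlg4 made up 66.6% ± 1.31 of the summed Dlg4 and Dlg2 level in PFC, 66.0% ± 1.53 in hippocampus and 60.0% ± 1.44 in striatum.

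**Figure D4:**
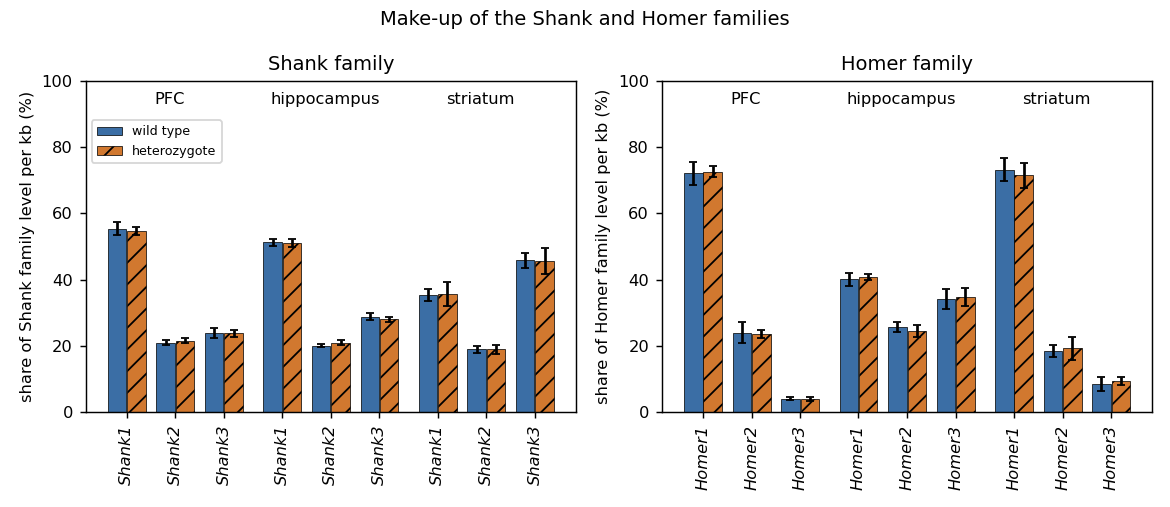
Share of each gene in the summed level per kilobase of its family (vertical axes, percent from 0 to 100), Shank family on the left and Homer family on the right, by region, as the mean over libraries with SD, blue bars for wild type and hatched orange bars for heterozygote. Shank3 goes from 23.7% in wild-type PFC to 45.8% in striatum, and Homer3 from 3.97% in PFC to 34.2% in hippocampus, with nearly equal bars for the 2 genotypes.

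The comparison of the libraries labelled heterozygote with wild type asks whether a Myt1l mutation moves these genes. None of the 9 members passed the threshold in PFC, hippocampus or striatum (limma, Benjamini-Hochberg over 16667, 16820 and 17054 genes), where 0% of all genes passed. At an unadjusted p under 0.05 there were 0, 1 and 0 members, and 833, 1145 and 1004 of all genes. The ranges of the 2 genotypes overlapped for all 9 members in every region, against 0.462%, 0.678% and 0.399% of all genes without overlap. A p that misses the threshold does not show that the levels were equal, and the 95% intervals give the sizes these libraries allow.

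In PFC all 9 differences, heterozygote minus wild type, were below 0, from -0.09 for Shank1 to -0.01 for Dlgap1, with a median of -0.03. Of all genes tested 51.3% were below 0 there. The members share libraries and scaling, so the 9 signs are not separate observations. With only codes beginning with 35, Dlgap1 (0.02) and Homer1 (0.06) were above 0. Leaving out single libraries gave ranges across 0 for Dlgap1, Homer1, Dlg2 and Homer3. Shank1 was 22537, 18822, 21529, 20646 and 22608 in the 5 heterozygote libraries, and 20127 to 24216 in wild type (median 22741). The heterozygote libraries lay within or below the wild-type range. The Shank1 difference was -0.09 (SE 0.06, adjusted p = 0.977, limma), with an interval of -0.21 to 0.03. It was -0.05 without PFC heterozygote replicate 2 and -0.16 with only codes beginning with 35, and passed in neither. Shank3 was 8085, 7788, 8492, 7996 and 7979, against 8021 to 9006 in wild type, a difference of -0.06 (SE 0.04, interval -0.14 to 0.02). The intervals of the 9 members in PFC reached from -0.35 to 0.21, both bounds set by Homer3.

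In hippocampus 5 members were above 0 and 4 below, with a median of 0.00. Homer1 had the smallest p: it was 5388, 5254, 5228, 5123 and 5073 in heterozygotes and 4582 to 5373 in wild type (median 4834). All 5 heterozygote libraries lay above the wild-type median, the highest of them just above the wild-type range, with an SD of 123 against 299 in wild type. The Homer1 difference was 0.10 (SE 0.04, adjusted p = 0.727, limma). Dlg2 had the largest difference downward, -0.09 (SE 0.05, interval -0.20 to 0.02), with 10267, 11132, 10232, 11400 and 11428 in heterozygotes against 10504 to 12865. Without the 2 hippocampus libraries low in Ttr, Homer1 was at 0.07 and Dlg2 at -0.04, and no member passed.

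In striatum 7 members were below 0 and 2 above, where 51.6% of all genes tested were below 0. The widest intervals belonged to Dlgap1 (-0.14, SE 0.14, interval -0.45 to 0.17), Homer1 (0.00, SE 0.16, interval -0.35 to 0.35) and Homer3 (0.21, SE 0.14, interval -0.09 to 0.50). Dlgap1 was 4037 to 6826 in heterozygotes (median 4719) and 4554 to 7353 in wild type (median 5562). Homer3 was 161 to 279 (median 193) against 129 to 208 (median 173), and the highest value belonged to heterozygote replicate 1. Marker lists moved in this comparison too, with 0 genes past the threshold in any list: below 0 were 7 of 7 excitatory neuron markers (median -0.26), 8 of 9 medium spiny neuron markers (-0.15), 6 of 6 choroid plexus (-0.32), 5 of 5 meningeal (-0.20), 6 of 6 microglia (-0.08) and 5 of 6 vascular markers (-0.02). Of 7 oligodendrocyte markers 6 were above 0 (0.08), of 4 dentate granule cell markers 3 (0.12), of 7 interneuron markers 5 (0.03), and of 6 astrocyte and 6 thalamic markers 4 each (0.01 and 0.07). The genes of a list share these libraries, so their counts are not separate observations. The part of these cell types in the differences of the members was not tested. The following fits left out libraries or added a covariate, and give only how far the values moved. Without the 5 libraries high in Slc17a7, Dlgap1 was at -0.08 and Homer3 at -0.08. That fit kept heterozygote replicates 3 to 6 and wild-type replicates 2, 3 and 6. With the excitatory marker level as a covariate Dlgap1 was at -0.07. Leaving out wild-type replicate 5 alone gave -0.06 for Dlgap1 and 0.12 for Homer3. Leaving out heterozygote replicate 1, the striatum library low in Ttr, gave -0.22 and 0.11.

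**Figure D5:**
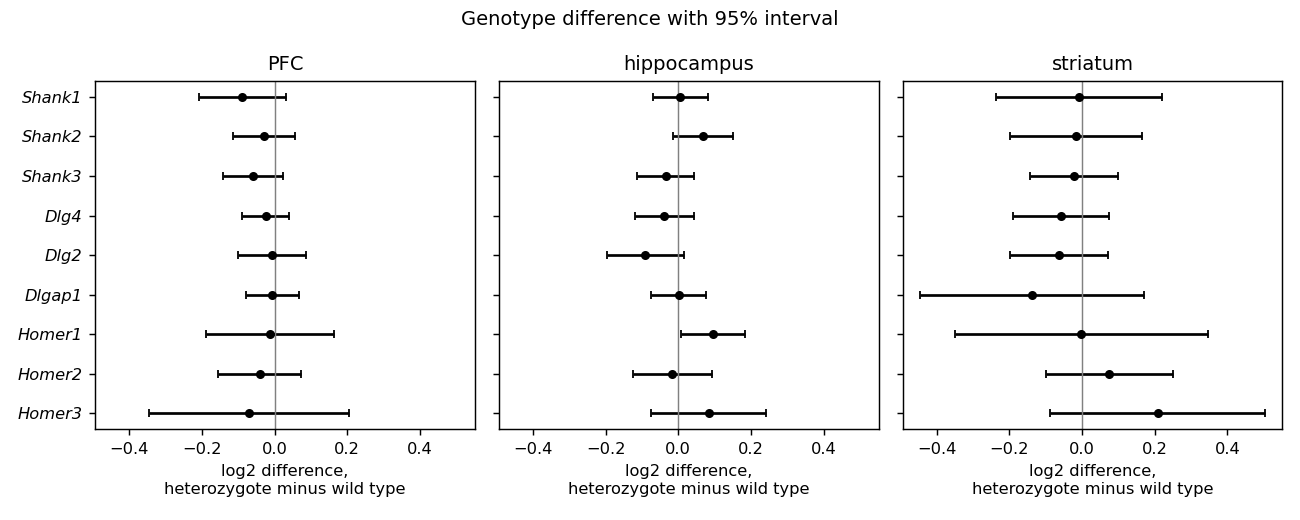
Log2 difference, heterozygote minus wild type (horizontal axes), for the 9 scaffold genes in PFC, hippocampus and striatum, as points with 95% intervals from limma. The interval of every gene spans 0 except that of Homer1 in hippocampus, which did not pass after adjustment, and the intervals are widest in striatum for Dlgap1, Homer1 and Homer3.

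Averaged over the 3 regions in a fit of all 34 libraries, 0 of 9 members passed (0.0938% of all genes did, 16 of 17051), and 0 members had an unadjusted p under 0.05. The averages ran from -0.05 for Dlg2 (SE 0.03, adjusted p = 0.681, limma) to 0.08 for Homer3 (SE 0.07). For Dlg4, the average was -0.04, with an interval of -0.10 to 0.02. No member passed the interaction test of whether the genotype difference changes between regions (0 of 9 in each of 3 pairs of regions, with 0% of all genes called; at an unadjusted p under 0.05 there were 0 members, and 641, 612 and 629 of all genes), and the intervals of these differences reached from -0.62 to 0.44.

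The shares within families were tested as well, since a share does not move with the scaling of a library. Of 21 exact permutation tests (2-sided) over libraries, 0 had an adjusted p under 0.05 and 1 had a raw p under 0.05. That was Shank2 in hippocampus, at 20.9% ± 0.706 (SD, n = 5) in heterozygotes and 20.0% ± 0.378 (n = 6) in wild type, a difference of 0.852 percentage points with exact p = 0.0433 and adjusted p = 0.909. The smallest p these designs allow is 0.00433 for 5 against 6 libraries and 0.00216 for 6 against 6. In striatum Shank3 held 45.6% ± 3.88 in heterozygotes and 45.8% ± 2.20 in wild type.

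The binding partners of the scaffolds were read from 4 lists with 58 genes in all, every one of which was tested. Between genotypes 0 of 58 passed in any region. In PFC 24 were above 0 and 34 below (median -0.02, against 0.00 over all genes), in hippocampus 25 and 33 (median 0.00), and in striatum 17 and 41 (median -0.03); of all genes 51.3%, 50.6% and 51.6% were below 0. The smallest p-values belonged in PFC to Cacng2, an AMPA receptor auxiliary subunit (0.09, adjusted p = 0.977), and Lrrc7, encoding densin (-0.15, adjusted p = 0.977, limma). In hippocampus they belonged to Lrfn1, a synaptic adhesion protein (-0.19, adjusted p = 0.661), and Sptan1, a spectrin (0.08, adjusted p = 0.719, limma). In striatum they belonged to the adhesion protein gene Nlgn1 (-0.13, adjusted p = 0.715) and to Cttn, encoding the actin-binding cortactin (0.12, adjusted p = 0.813, limma). In the average over regions they belonged to Magi1, a scaffold of the same membrane layer (0.08), and Sptan1 (0.04), neither of which passed.

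Between regions the partners differed in both directions. In wild type 29 of 58 were higher in PFC than in hippocampus and 19 lower, 43 were higher in PFC than in striatum and 9 lower, and 38 were higher in hippocampus than in striatum and 13 lower. Over all genes the shares were 22.9% higher and 23.9% lower, 27.8% and 29.2%, and 23.9% and 24.1%. The list nearest to the members, 10 other PSD-95-like and SAPAP scaffolds, had 9 higher and 0 lower in PFC against hippocampus, 10 and 0 in PFC against striatum, and 4 and 5 in hippocampus against striatum, with medians of 0.54, 0.50 and -0.04. The signalling regulators numbered 7 higher and 3 lower in PFC against hippocampus, the actin-linked genes 6 and 7, and the receptor and adhesion genes 7 and 9. Of the scaffolds, Dlgap3, encoding SAPAP3, was higher in PFC than in hippocampus by 0.89 (SE 0.07), whereas the member Dlgap1 differed there by -0.06.

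Of the 16 signalling regulators 11 were higher and 3 lower in hippocampus than in striatum, among them Camk2a, the main kinase of the postsynaptic density (1.63, SE 0.08), and the kinase anchor Akap5, which was lower (-1.23, SE 0.06). Camk2a was also higher in PFC than in striatum by 1.77 (SE 0.08), next to 1.73 for Shank1 and 1.62 for Dlgap1. Sipa1l3, of a family of spine GTPase regulators, was lower in PFC than in hippocampus (-1.71, SE 0.06). Ppp1r9a, encoding the actin-binding neurabin, was lower in hippocampus than in striatum (-0.72, SE 0.05).

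Of the 15 actin-linked genes 12 were higher and 2 lower in hippocampus than in striatum. Tanc1, a scaffold that binds PSD-95, had a pattern close to that of Homer3: -2.94 (SE 0.08) for PFC minus hippocampus and 2.30 (SE 0.08) for hippocampus minus striatum, but also -0.64 for PFC minus striatum. Actn2, encoding an actinin that binds NMDA receptors, went the other way, at -1.96 (SE 0.10) for PFC minus striatum and -1.76 (SE 0.10) for hippocampus minus striatum.

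Among the 17 receptor and adhesion genes, the AMPA receptor subunit gene Gria1 was lower in PFC than in hippocampus (-1.57, SE 0.05) and Gria4 higher (0.88, SE 0.05), as was the auxiliary subunit gene Cacng3 (1.48, SE 0.08). The NMDA receptor subunit gene Grin2a was higher than in striatum by 1.61 (SE 0.10) in PFC and 2.10 (SE 0.10) in hippocampus. By the same rule, heterozygotes had Cacng2 (0.93, PFC minus hippocampus), Akap5 (-0.58, PFC minus striatum) and the PSD-95 relative Dlg1 (-0.71, hippocampus minus striatum) in the places of Dlgap3, Tanc1 and Ppp1r9a.

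The genes whose log2 levels correlated most with each member over the 34 libraries, out of 12671 genes with a mean of at least 100, are given as a description. The 34 points fall into 3 regions, share scaling and codes, and the correlation mostly reflects the regions. Dlgap1 went with Adcy1 and Creg2 (Pearson r 0.994 for each), Shank2 with Extl1 (0.992), Shank1 with Tmem151b (0.991) and B3gat1 (0.988), and Homer3 with Cabp7 (0.989) and Gm2115 (0.986). Dlg4 went with Ppp2r2c (0.984) and Ttbk1 (0.981), Homer2 with Sobp (0.979) and Dyrk2 (0.976), and Homer1 with Ttl (0.975) and Cx3cl1 (0.968). The members that differ little between regions had lower values: Dlg2 with the mitochondrial genes mt-Nd5 (0.882) and mt-Cytb (0.860), and Shank3 with the endothelial gene Egfl7 (0.700) and Gm43597 (0.694).

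Since the mutated gene encodes a factor of the MYT family, the promoters were searched for the core AAAGTTT known for this family, for its shorter form AAGTT, which lies within the longer core, and for the cAMP response element TGACGTCA, on both strands of the 250 bases before each annotated start. RefSeq windows (GRCm38.p6) were matched for 7 of the 9 members. AAAGTTT was found for 1 of the 7, Dlgap1, against 4.85% of 27025 genes, AAGTT for 5 of the 7 against 38.91%, and TGACGTCA for 0 of the 7 against 1.77%. The members have more annotated starts per gene than the table as a whole (14 windows for 7 genes, against 32851 for 27025). Per window AAAGTTT was in 1 of 14 against 4.2%, AAGTT in 7 of 14 against 35.33%, and TGACGTCA in 0 of 14 against 1.55%. The AAAGTTT of Dlgap1 lay inside an annotated exon (within chr17:70561635-70561695), before another start of that gene, and is not shown. The matches outside annotated exons are shown with 27 bases on each side, 5′ to 3′ on the plus strand, with the letters AAGTT in capitals.
Dlg4, chr11:70023834-70023892: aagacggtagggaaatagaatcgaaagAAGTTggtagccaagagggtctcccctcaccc
Homer1, chr13:93307806-93307864: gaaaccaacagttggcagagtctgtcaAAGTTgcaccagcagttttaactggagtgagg
Dlgap1, chr17:69968974-69969032: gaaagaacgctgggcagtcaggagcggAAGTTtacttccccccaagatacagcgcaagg
These 3 genes differed in their regional patterns. None of them passed between genotypes in any region, where 0% of all genes did. A match of letters is not a measured binding site, and a role of these matches was not tested.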

How the data were processed

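The authors deposited 1 table of normalized counts per gene and library, here treated as a signal, since the deposited values hold fractions and a raw count model could not be used. Per the submitters' processing notes, the tools were Salmon 1.1.0, DESeq2 1.26.0 and R 3.6.2 and the build was GRCm38; no role is stated. Low values clustered at steps of 0.745 to 1.23 normalized counts, which may stand for 1 read; raw depth is not given in the sources used here, so no counting interval was computed and precision is the spread between libraries. Symbols and positions came from the GENCODE annotation (GRCm38), where 18533 gene identifiers were found and 15 were missing.

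Values were taken as log2(value + 1), genes with a mean of at least 10 were kept, and limma 3.58.1 in R 4.3.3 (trend, robust, 2-sided, Benjamini-Hochberg at 0.05 over all genes tested) was fitted within each region for genotype and within each genotype for regions. The column code entered the region fits as a random block, with a correlation of 0.0241 in wild type and 0.0503 in heterozygotes. The average over regions used the code divided by genotype (correlation 0.0429), and the interaction had no block. Family shares were tested over libraries by exact permutation. The fits were tested on simulated data.

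The members, gene lists and tests were chosen with earlier results of these data known. Named were all members; of the partner lists those past the threshold, or the 2 with the smallest p where none passed, and for regions in wild type the 3 with the largest differences in each direction; and the 2 genes most correlated with each member. Slc17a7, Ttr and Ddx49 were named after their values or positions were seen. Some genes that these rules name are not reported here. Alternatives were pseudocounts of 0.5 and 5, no filter, equal library totals, blocks, subsets of codes, longest transcript as length, and leaving out each library. Chosen after seeing the data were leaving out the striatum libraries high in Slc17a7 or the hippocampus libraries low in Ttr, and a marker covariate.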

Additional observations from a re-analysis of the deposited data

Results flagged for a closer look

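Among 54 groups of libraries (9 genes in 6 groups), 2 had a library far from the others by Dixon's ratio, and chance alone gives about 1 in 20. Shank3 in striatum heterozygote replicate 3 was 8367 normalized counts, and the next library stood at 7544. Homer2 in hippocampus heterozygote replicate 2 was 3639, and the next stood at 3236. Neither gene passed between genotypes with or without these libraries.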

How the results depend on the processing

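For heterozygote against wild type, the count of members past the threshold was 0 in each region, in the average and in the interactions under every alternative run, leave-one-out fits included. The counts past the threshold between regions stayed within 1.5 times of those reported in all alternatives, with leave-one-out ranges of 6 to 9 for PFC against striatum in wild type and 8 to 9 in heterozygotes. The count with a log2 difference of at least 1 between PFC and hippocampus in wild type moved from 2 to 1 with a pseudocount of 5, equal library totals, only codes beginning with 35, and without the 5 striatum libraries high in Slc17a7, and ranged from 1 to 2 when single libraries were left out. Of the values of single members, 1922 were the same in direction and call, 93 changed sign, 35 lost and 3 gained a call. The cause was not tested for any of them, and the values that changed sign were mostly small and uncalled.

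The replicate numbers were not taken to pair heterozygote with wild-type libraries of a region: of 16 same-numbered pairs 1 correlated above 0.1 (range -0.096 to 0.119) and 4 correlated best with their own number. With the replicate block, heterozygote against wild type again gave 0 members in each region, while Dlgap1 (0.0062) and Homer1 (0.0476) changed sign in PFC, as they did without codes beginning with 31. The Shank3 difference between PFC and striatum in heterozygotes (0.0929) lost its call with the replicate number as the block (adjusted p = 0.0508, limma), without a block (0.0529) and without the filter on low values (0.0516); in its alternatives other than single libraries the adjusted p reached 0.209.

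With equal library totals, sign changes between regions were Homer2 PFC minus hippocampus (-0.0505 in wild type, -0.0840 in heterozygotes), Shank3 PFC minus hippocampus in heterozygotes (-0.0250), Shank3 PFC minus striatum (-0.0124 and -0.0564), Dlg2 PFC minus striatum in wild type (-0.0195) and Shank3 hippocampus minus striatum (-0.0210 and -0.0314). Between genotypes in striatum they were Homer1 (0.0081) and Shank1 (0.0023). With only codes beginning with 35, they were Dlgap1 (0.0226) and Homer1 (0.0586) in PFC, Homer2 in hippocampus (0.0086), Shank3 in striatum (0.0302), the averages of Homer1 (-0.0136), Homer2 (-0.0122) and Shank2 (-0.0480), and in heterozygotes Homer2 PFC minus hippocampus (-0.0405) and Homer1 hippocampus minus striatum (0.1407). The interactions that changed sign with these codes were Dlgap1 (0.0178), Dlg4 (-0.0044) and Shank3 (0.0075) for PFC against hippocampus, Homer1 (0.2459) and Shank2 (0.0392) for PFC against striatum, and Dlg2 (0.0624) for hippocampus against striatum.

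Without codes beginning with 31, Dlgap1 (-0.0302) and Shank1 (-0.0215) changed sign between genotypes in hippocampus. The next 3 alternatives were chosen after seeing the data. Without the 2 hippocampus libraries low in Ttr, Dlgap1 was -0.0077 and Shank1 -0.0166. Without the 5 striatum libraries high in Slc17a7, Homer3 was -0.0765, Homer1 0.1072 and Shank3 0.0215 between genotypes in striatum, and Homer1 hippocampus minus striatum was 0.0736 in wild type and 0.0562 in heterozygotes. The Homer3 average was then -0.0209, and the interactions were 0.0068 for Homer3 in PFC against striatum, and 0.1599 for Homer3, -0.0115 for Homer1 and -0.0026 for Dlg4 in hippocampus against striatum. With the excitatory neuron marker level as a covariate, Homer1 was 0.0545, Shank2 0.0165 and Shank1 0.0314 in striatum.

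Leaving out single libraries gave ranges across 0 between genotypes for Dlgap1 (-0.0263 to 0.0072), Homer1 (-0.0645 to 0.0476), Dlg2 (-0.0365 to 0.0200) and Homer3 (-0.1515 to 0.0413) in PFC, for Dlgap1 (-0.0196 to 0.0231), Shank1 (-0.0197 to 0.0293) and Homer2 (-0.0556 to 0.0027) in hippocampus, and for Homer1 (-0.1001 to 0.0815), Shank2 (-0.0744 to 0.0348), Shank1 (-0.0750 to 0.0576) and Shank3 (-0.0657 to 0.0110) in striatum. Between regions they were Shank3 hippocampus minus striatum in wild type (-0.0118 to 0.0646) and, in heterozygotes, Homer2 PFC minus hippocampus (-0.0128 to 0.0507) and Homer1 hippocampus minus striatum (-0.1361 to 0.0461). Raw depth is not given in the sources used here, so its limits on the values could not be stated.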
